A study of Mus musculus with 2 samples.

Results

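The miR-200 family and the miR-183 cluster are 8 of the 2202 annotated miRNA genes counted by microRNA sequencing of mouse left cerebral cortex. They were chosen by gene symbol: Mir200a, Mir200b, Mir429, Mir200c and Mir141 form the miR-200 family, and Mir183, Mir96 and Mir182 the miR-183 cluster. The choice was made with the sense counts of both libraries known, in which these genes were high in one library and low in the other. Every value of that difference given here therefore describes the 2 libraries and carries no test. The mice were B6CASTF1/J, a hybrid of C57BL/6J and CAST/EiJ, aged 18 to 20 months, with no treatment named. All samples formed 1 group, with 2 libraries numbered as biological replicates 1 and 2, made from total RNA with a size range under 30 nucleotides. The labels call the animals female in some fields and male in another, and give both libraries a single donor identifier. Whether the 2 libraries come from 2 animals could not be settled. A technical difference between them therefore cannot be told apart from one between animals.

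MicroRNAs are short RNAs cut from hairpin precursors that guide silencing of messenger RNAs, mainly through the seed near their 5′ end. The miR-200 family is known for keeping epithelial cells epithelial by repressing Zeb1 and Zeb2, and in the nervous system it is known from olfactory tissue. The miR-183 cluster is known from sensory organs, where its members are abundant in photoreceptors, hair cells of the inner ear and sensory neurons. Neither group is a defining marker of cortical neurons. In bulk tissue, fewer cells of a type and less RNA per cell cannot be told apart.

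The mature sequences show how closely the members are related and which of them can be counted apart. All 8 were found in the RefSeq table (GRCm38.p6), and their hairpins had the same positions there as in the annotation of the counts. The arm usually taken as the guide is printed 5′ to 3′, with the seed (bases 2 to 8) in capitals, grouped by seed.
miR-200b-3p: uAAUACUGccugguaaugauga
miR-200c-3p: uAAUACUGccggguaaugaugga
miR-429-3p: uAAUACUGucugguaaugccgu
miR-200a-3p: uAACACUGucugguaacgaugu
miR-141-3p: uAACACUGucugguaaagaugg
miR-183-5p: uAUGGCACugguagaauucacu
miR-96-5p: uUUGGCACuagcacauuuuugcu
miR-182-5p: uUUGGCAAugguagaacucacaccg

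Counting positions from 1 at the 5′ end, the miR-200 family splits into 2 seed groups that differ by a single substitution, U4C from miR-200b-3p to miR-200a-3p and to miR-141-3p. Outside the seed, miR-200b-3p and miR-200c-3p differ by U11G and A22G over 22 compared positions. In the miR-183 cluster the seed of miR-96-5p differs from that of miR-183-5p by U2A and from that of miR-182-5p by C8A. Among 1738 mature sequences in that table, the seeds of miR-183-5p and miR-182-5p had no other holder. The seed of miR-96-5p was shared with miR-1271-5p, whose gene had no sense count in either library. The 2 miR-200 seeds were held by family members alone. All 8 guides start with U, as do 41.3% of all mature sequences, and their GC content ran from 36.4% to 48.0%, against a median of 52.2% over all. Those values over all sequences take in both arms of hairpins, not guides alone, so the sets are unlike. No hairpin of the 8 shares a stretch of 20 nucleotides with any other of the 2202 miRNA genes, so their uniquely placed reads can be given to 1 gene.

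The 8 genes lie in 3 genomic clusters, all on the minus strand (mm10). Mir200b (ENSMUSG00000065549.3, chr4:156055681-156055750), Mir200a (ENSMUSG00000065400.1, chr4:156054896-156054985) and Mir429 (ENSMUSG00000065427.1, chr4:156053905-156053987) span 1846 bases. They lie in introns of Ttll10, a protein-coding gene on the same strand, and of the non-coding gene Gm13648, of which Mir429 overlaps an exon. Mir200c (ENSMUSG00000065462.3, chr6:124718322-124718390) and Mir141 (ENSMUSG00000065474.1, chr6:124717914-124717985) span 477 bases in an intron of the non-coding gene Gm15884. Mir141 also overlaps an exon of the transcript Gm29008, and both lie between the protein-coding genes Phb2 and Ptpn6. Mir183 (ENSMUSG00000065619.2, chr6:30169668-30169737), Mir96 (ENSMUSG00000065586.1, chr6:30169446-30169551) and Mir182 (ENSMUSG00000076361.1, chr6:30165918-30165992) span 3820 bases and overlap no other annotated gene. The nearest protein-coding gene, Nrf1, is 12459 bases from Mir182. The 2 clusters on chromosome 6 are 94.5 Mb apart.

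Levels are CPM, the sense count of a gene per 1000000 sense counts of all miRNA genes. These totals were 5166667 in replicate 1 and 4459993 in replicate 2, so that a count of 0 allows up to 0.581 and 0.673 CPM. Reads assigned to no gene made up 65.2% and 65.1% of all reads. Of the 2202 genes, 409 reached 2 CPM in both libraries, with a median level of 88.9 CPM. As a check of the tissue, 8 of 11 genes of a cortical neuron list reached 2 CPM in both libraries. The sum of that list was 36826 CPM in replicate 1 against 32458 CPM in replicate 2, led by Mir128-1 with 20358 and 14077 CPM. Mir124a-1, Mir124a-2 and Mir124a-3, which encode the neuronal miR-124 from identical copies, had at most 21 counts each. Levels of different miRNA genes are counts per gene with no length term, and intervals cover counting error only.

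All 8 members had sense counts in both libraries, and all 8 had a lower CPM in replicate 2, as did 59.4% of the 438 genes that pooled to 20 or more counts. Together they held 12770 counts in replicate 1 and 1007 in replicate 2, which is 2472 CPM (0.247% of sense counts) and 225.8 CPM (0.0226%). The mean was 1349 ± 1588 CPM (SD, n = 2), an SD larger than the mean, so a mean of the 2 libraries describes neither. Scaled by TMM, which sets library totals by the bulk of the genes, the sum was 9.62-fold higher in replicate 1 (95% counting interval 9.03 to 10.3). No member's counting interval in one library overlapped its interval in the other, and 35.6% of the 438 genes likewise had intervals apart with the higher level in replicate 1. Of the 8 members, 7 reached 2 CPM in both libraries, and Mir96 did so in replicate 1 alone.

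**Figure D1:**
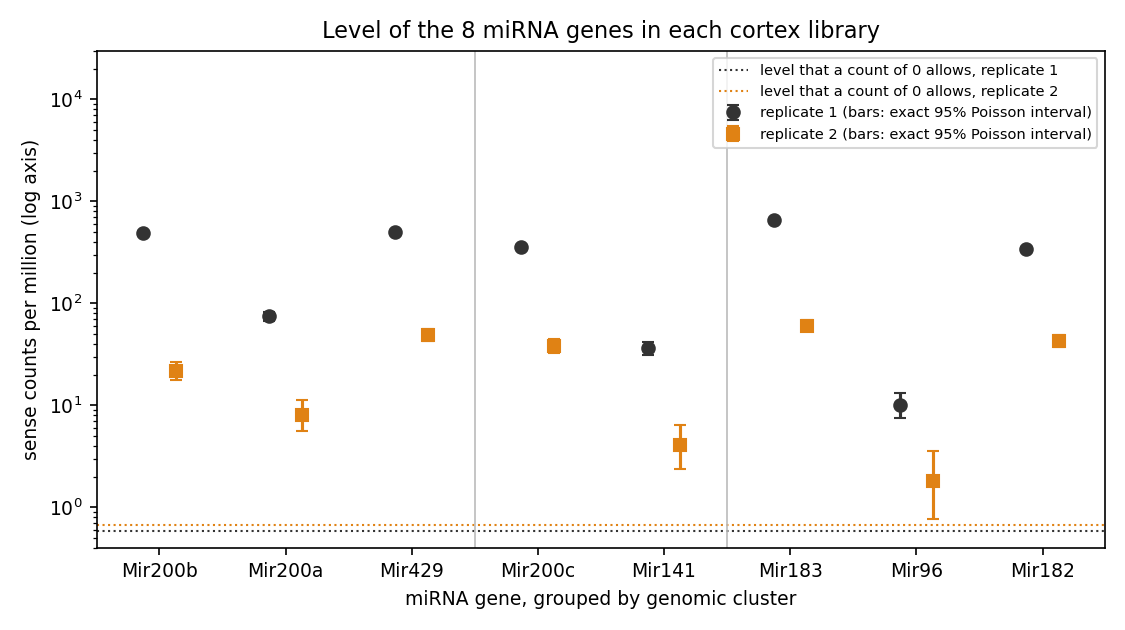
Level of each of the 8 genes (x axis, grouped by genomic cluster) in CPM on a log axis, with replicate 1 as circles, replicate 2 as squares and exact 95% Poisson intervals as bars. Every circle stands above its square, and Mir96 in replicate 2 lies nearest to the dotted lines, the levels that a count of 0 allows.

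In the chromosome 4 cluster, Mir200b had 2551 counts in replicate 1 and 97 in replicate 2, or 494 CPM (95% Poisson interval 475 to 513) and 21.7 CPM (17.6 to 26.5). Its TMM-scaled level was 19.9-fold higher in replicate 1 (counting interval 16.3 to 24.7), the largest ratio of the 8. Mir200b, a repressor of Zeb1 and Zeb2 through the more abundant of the 2 family seeds, was thus the third highest member in one library and the fifth in the other. Mir429, which carries the same seed, had 2585 and 217 counts, or 500.3 CPM (481 to 520.0) and 48.7 CPM (42.4 to 55.6). That made it 9.02-fold higher in replicate 1 (7.87 to 10.4). Mir200a, with the other family seed, had 384 and 36 counts, or 74.3 CPM (67.1 to 82.1) and 8.07 CPM (5.65 to 11.2), and was 7.99-fold higher (5.74 to 11.7). The interval of Mir200b did not overlap those of its 2 neighbours, whose intervals overlapped each other.

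In the second miR-200 cluster, Mir200c had 1860 and 170 counts, or 360.0 CPM (344 to 377) in replicate 1 and 38.1 CPM (32.6 to 44.3) in replicate 2. Mir200c, which has the seed of miR-200b, was 8.28-fold higher in replicate 1 (7.09 to 9.77). Mir141, which has the seed of miR-200a, had 187 and 18 counts, or 36.2 CPM (31.2 to 41.8) and 4.04 CPM (2.39 to 6.38). It was 7.69-fold higher in replicate 1 (4.85 to 13.6), and the intervals of the 2 genes overlapped. The miR-200 family as a whole stood at 1465 CPM in replicate 1 against 120.6 CPM in replicate 2.

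In the miR-183 cluster, Mir183, a miRNA of sensory cells, was the highest of all 8 genes in both libraries. It had 3377 counts in replicate 1 and 270 in replicate 2, or 654 CPM (632 to 676) and 60.5 CPM (53.5 to 68.2), and was 9.48-fold higher in replicate 1 (8.38 to 10.8). Mir182, which is transcribed with it, had 1774 and 191 counts, or 343 CPM (328 to 359.7) and 42.8 CPM (37.0 to 49.3). It was 7.03-fold higher in replicate 1 (6.07 to 8.23), and its interval did not overlap that of Mir183. Mir96, whose seed mutations are known to cause hearing loss, was the lowest member in both libraries. It had 52 and 8 counts, or 10.1 CPM (7.52 to 13.2) and 1.79 CPM (0.774 to 3.53). Its ratio of 4.69-fold (2.33 to 12.03) was the smallest of the 8, but with 8 counts in replicate 2 its interval took in the values of 6 other members and overlapped those of all but Mir200b.

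The order of the 8 levels was Mir183, Mir429, Mir200b, Mir200c, Mir182, Mir200a, Mir141 and Mir96 in replicate 1. In replicate 2, Mir182 moved up to the third place and Mir200b down to the fifth, and the other 6 genes kept their order among themselves. Counting intervals of Mir429 and Mir200b overlapped in replicate 1, as did those of Mir200c and Mir182. In replicate 2 each of the first 3 genes overlapped the next, and so did Mir200a with Mir141 and Mir141 with Mir96. Among all 2202 genes, Mir183 held rank 112 in replicate 1 and 206 in replicate 2, Mir200b held 125 and 267, and Mir96 held 319 and 435.

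As the rule for choosing these genes rested on the same contrast, their place among all genes is given as background only. Of the 438 genes, 17.6% were over 2-fold higher in replicate 1, and 8 of 8 members were. Over 4-fold, the share was 3.88% of all genes, and again 8 of 8 members. Over 8-fold it was 1.6%, and the members past it were Mir200b, Mir183, Mir429 and Mir200c. The median log2 ratio of replicate 2 to replicate 1 was -3.02 for the members, with a range from -4.31 to -2.23. It was -0.02 for all 438 genes, with quartiles at -0.69 and 0.49. Without TMM, on total sense counts, all log2 ratios were lower by 0.19 and the members' median was -3.21.

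**Figure D2:**
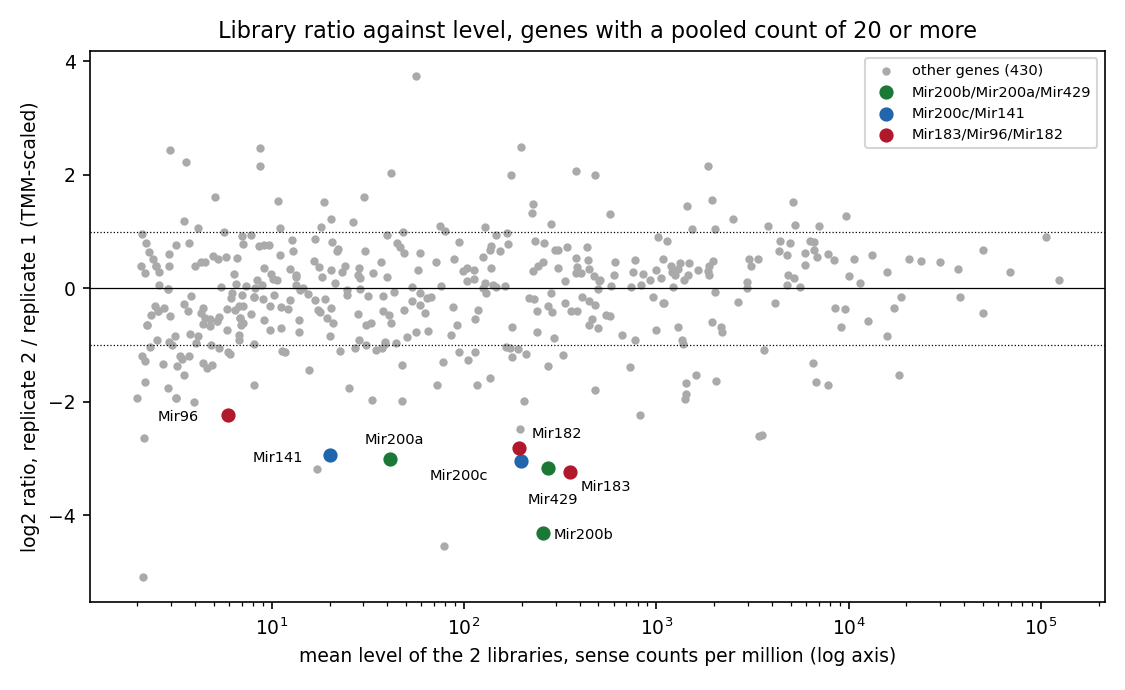
The log2 ratio of replicate 2 to replicate 1 (y axis, TMM-scaled) against the mean level in CPM (x axis, log scale) for 438 genes, with the members coloured by cluster and dotted lines at 2-fold. The members lie between -4.31 and -2.23 at mean levels from 5.93 CPM for Mir96 to 357 CPM for Mir183.

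The make-up of the chromosome 4 cluster differed between the libraries, and the shares of Mir200c and Mir141 in theirs overlapped within counting error. Mir200b made up 46.2% of the 5520 counts of its cluster in replicate 1 (exact binomial 95% interval 44.9% to 47.5%) and 27.7% of 350 counts in replicate 2 (23.1% to 32.7%). Mir429 made up 46.8% (45.5% to 48.2%) and 62.0% (56.7% to 67.1%), and Mir200a 6.96% (6.30% to 7.66%) and 10.3% (7.31% to 14.0%). With Mir200b set aside, Mir429 held 87.1% of the counts of the remaining pair in replicate 1 (85.8% to 88.3%) and 85.8% in replicate 2 (80.8% to 89.8%). The shift in make-up beyond counting error thus lay between Mir200b and its neighbours. The shares of Mir429 and Mir200a in their pair overlapped, which cannot show that they did not shift, as Mir200a had 36 counts in replicate 2.

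The cluster hairpins are shown because this difference in make-up is between precursors of one stretch of the genome, with both annotated mature arms in capitals. The deposited counts are per hairpin gene, so the arms are not counted apart.
Mir200b (chr4:156055681-156055750): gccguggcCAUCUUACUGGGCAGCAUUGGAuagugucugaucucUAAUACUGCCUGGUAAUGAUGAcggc
Mir200a (chr4:156054896-156054985): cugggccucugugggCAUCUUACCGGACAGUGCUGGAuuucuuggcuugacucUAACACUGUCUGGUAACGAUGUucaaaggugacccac
Mir429 (chr4:156053905-156053987): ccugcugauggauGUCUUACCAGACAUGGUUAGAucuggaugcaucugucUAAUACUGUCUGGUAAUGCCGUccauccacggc

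Mir200c made up 90.9% of 2047 counts of its cluster in replicate 1 (89.5% to 92.1%) and 90.4% of 188 counts in replicate 2 (85.3% to 94.2%). In the miR-183 cluster, Mir183 made up 64.9% of 5203 counts in replicate 1 (63.6% to 66.2%) and 57.6% of 469 in replicate 2 (53.0% to 62.1%). Mir182 made up 34.1% (32.8% to 35.4%) and 40.7% (36.2% to 45.3%), so the intervals of both genes lay apart between the libraries. Mir96 held 0.999% (0.747% to 1.31%) and 1.71% (0.739% to 3.33%), which overlapped. In all 3 clusters the same gene was least abundant in both libraries, and in the chromosome 4 cluster the intervals of Mir200b and Mir429 overlapped in replicate 1 only. How often the shares within other miRNA clusters lay apart between the libraries was not counted. Of 106 other pairs of adjacent miRNA genes within 10 kb, 41.5% differed by over 1 in log2 library ratio, as did 2 of 5 member pairs. A shift in make-up is therefore not particular to these clusters.

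**Figure D3:**
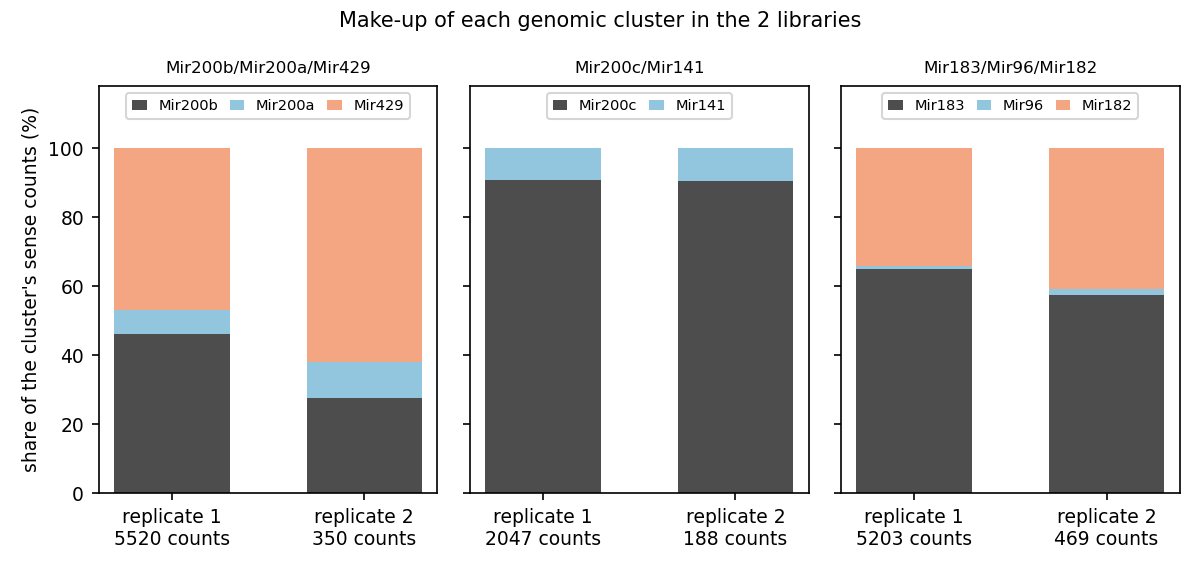
Share of each gene in the sense counts of its genomic cluster (y axis, percent) in each library (x axis, with the cluster's counts below). The share of Mir200b is 46.2% in replicate 1 and 27.7% in replicate 2, while that of Mir200c is 90.9% and 90.4%.

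Grouped by guide seed, and giving each gene's whole count to its guide arm, Mir200a and Mir141 held 7.55% of the 7567 miR-200 family counts in replicate 1 (6.96% to 8.16%). In replicate 2 they held 10.04% of 538 counts (7.63% to 12.9%), and the intervals overlapped. The rest, 92.5% and 90.0%, belonged to Mir200b, Mir200c and Mir429. The seed of miR-200b was therefore the main one of the family in both libraries, and in each of the 2 genomic clusters. The chromosome 4 cluster held 72.9% of the family's counts in replicate 1 (71.9% to 73.9%) and 65.1% in replicate 2 (60.9% to 69.1%).

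Neighbouring genes of one cluster are usually made from one transcript, so their ratios were set beside those of other clusters. Over the 5 pairs of adjacent members within 10 kb, the absolute difference of the log2 library ratio had a median of 0.59. It was smallest for Mir141 and Mir200c (0.11), followed by Mir429 and Mir200a (0.17), and largest for Mir200a and Mir200b (1.31). Over 106 other pairs of adjacent miRNA genes on one strand within 10 kb, the median was 0.79, with quartiles at 0.34 and 1.41. Only genes with 20 or more pooled counts were paired, so a gene below that between 2 others was passed over. A difference larger than that of Mir200a and Mir200b was found in 28 of those pairs (26.4%). Among them were Mir181a-2 and Mir181b-2 (3.43), of which Mir181a-2 shares its mature sequence with another gene and is uncertain. Pairs with such genes were not set apart. The pairs share genes and the 2 libraries, so these values describe the tables and have no test.

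**Figure D4:**
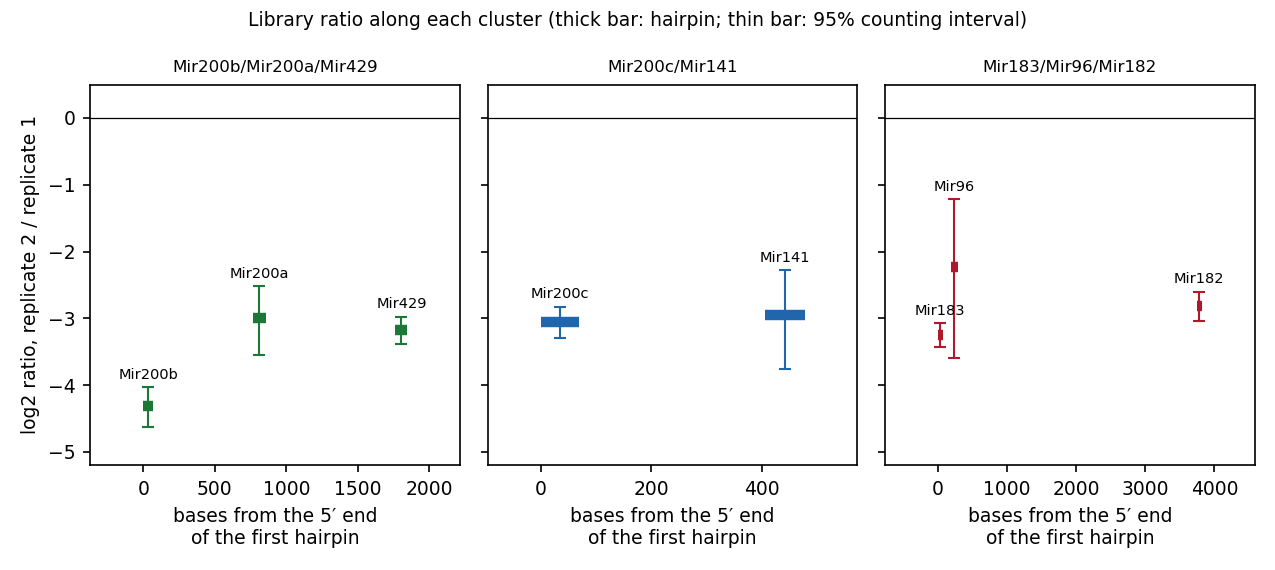
The log2 ratio of replicate 2 to replicate 1 (y axis) of each hairpin against its distance in bases from the 5′ end of the first hairpin of its cluster (x axis), with 95% counting intervals. Mir200b at -4.31 lies below Mir200a at -2.999 and Mir429 at -3.17, and the wide interval of Mir96 rests on 8 counts in replicate 2.

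Of the 3 other miRNAs of epithelial tissue, 1 had a lower CPM in replicate 2, as did 59.4% of all 438 genes, and 2 a higher one. Of the 3 fixed besides the miR-200 family, Mir31 had 954.8 CPM in replicate 1 against 1046 CPM in replicate 2 (log2 ratio 0.32), and Mir203, a miRNA of skin and other layered epithelia, had 77.8 and 274 CPM (2.00). Mir205, also of layered epithelia, had 12.8 and 3.36 CPM (-1.70), from 66 and 15 counts. The ratio of Mir31 lay within the quartiles of all 438 genes (-0.69 and 0.49). Mir205 was the only 1 of the 3 over 2-fold higher in replicate 1, against 17.6% of all 438 genes. Mir203 was the only 1 over 2-fold higher in replicate 2, against 8.68%. The ratio of Mir205 lay within the counting interval of Mir96, from -3.59 to -1.22, which rests on 8 counts in replicate 2. It lay outside the interval of every other member, the nearest being Mir141 with an upper limit of -2.28. The list summed to 1045 and 1324 CPM, with a median log2 ratio of 0.32 against -3.02 for the members.

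Markers listed under other tissues were given with the same measure, and their part in the members' difference was not tested. The choroid plexus and ciliated epithelium list summed to 726 CPM in replicate 1 against 1113 CPM in replicate 2, with 4 of 7 genes at 2 CPM in both libraries and Mir449b at 0 in both. Its highest gene, Mir204, had 533 and 467 CPM (log2 ratio 0.00), and Mir34c, of ciliated cells, had 163 and 604 CPM (2.08). Of its 4 genes with 20 or more pooled counts, 0 were over 2-fold higher in replicate 1, against 17.6% of all 438 genes, and 2 were over 2-fold higher in replicate 2, against 8.68%. The endocrine and pituitary list summed to 1492 and 2324 CPM, led by Mir7b (1086 and 1967 CPM) and Mir375 (310.5 and 256.5 CPM). Of its 4 genes, 0 were over 2-fold higher in replicate 1 and 1 in replicate 2. Mir184, of lens and cornea, had 132 and 124 CPM.

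Towards replicate 1, as the members, stood Mir214 of the meninges and fibroblast list, with 78.2 CPM in replicate 1 against 17.3 CPM in replicate 2 (log2 ratio -1.99). The other 3 genes of that list, Mir199a-1, Mir199a-2 and Mir199b, were at 0 in both libraries. They encode near-identical mature miRNAs, whose reads can have several places in the genome, and such reads were deposited apart from the gene counts. The red cell list summed to 122 and 71.5 CPM, with Mir451a at 47.0 and 39.7 CPM, Mir486 at 43.0 and 18.8 CPM and Mir144 at 166 and 58 counts (log2 ratio -1.11). Its median log2 ratio, that of Mir486, was -0.999, just short of 2-fold, and -1.18 on total sense counts. With TMM, Mir144 was the 1 gene of 3 over 2-fold higher in replicate 1, as were 17.6% of all 438 genes. The Hox cluster list, of body regions behind the forebrain, summed to 36.8 and 90.4 CPM, and Mir10b had 16.3 and 43.9 CPM. All 3 of its genes with 20 or more pooled counts were over 2-fold higher in replicate 2, as were 8.68% of all 438 genes.

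**Figure D5:**
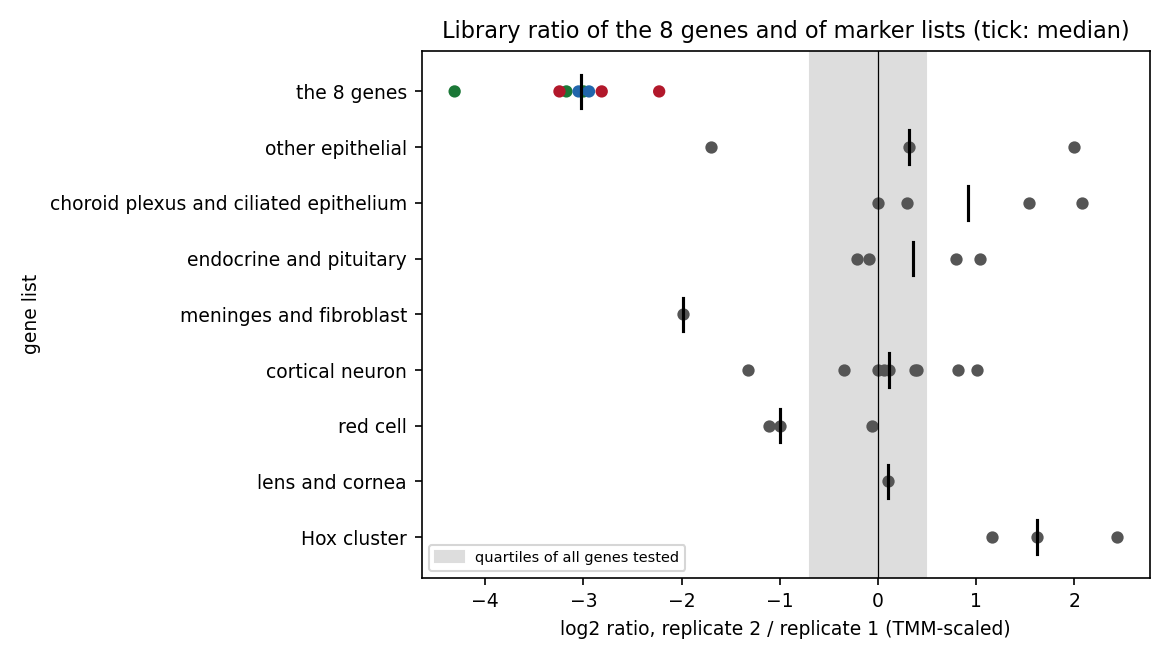
The log2 ratio of replicate 2 to replicate 1 (x axis) for the 8 members and for marker genes with 20 or more pooled counts, by list (y axis), with a tick at each median and the quartiles of all 438 genes shaded. The members lie between -4.31 and -2.23, whereas the 3 other epithelial genes range from -1.70 to 2.00.

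The genes most like the members in the 2 libraries, by the distance of their log2 ratio from the members' median, were Mir181a-2 (-3.19), Mir7070 (-2.64), Mir195a (-2.61), Mir423 (-2.58) and Mir301 (-2.48). With 2 libraries this likeness is a single number per gene. Mir195a, with 30764 and 3833 counts, and Mir423, with 32026 and 4054, were far more abundant than any member. Mir181a-2 (162 and 13 counts) shares its mature sequence with another gene and is uncertain, and Mir7070 had 20 and 2 counts. The only genes with a larger ratio towards replicate 1 than Mir200b, named after their values were seen, were Mir1247 with 783 and 25 counts and Mir1964 with 22 and 0.

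Counts on the opposite strand were at or under the limit of 3 counts for every member. Mir200a had 2 such counts in replicate 2, and the other 7 genes and all 8 in replicate 1 had none. The column that ignores strand therefore held the same counts as the sense column for every member but Mir200a, where it held 38 in place of 36.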

How the data were processed

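MicroRNA sequencing of left cerebral cortex gave 1 table per library. The authors deposited read counts per miRNA gene, not normalized, on mouse build mm10 with GENCODE release M21, per the file descriptions deposited with the tables. The aligner and the counter were not given in the sources used here. Of the 3 count columns per table, the stranded column with the larger total was taken as sense. The 4 lines that name no gene (65.2% and 65.1% of reads) were left out of library sizes. All 2202 identifiers matched GENCODE M21.

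From these counts, CPM was computed per 1000000 sense counts (5166667 and 4459993). For library ratios 0.5 was added to every count and the totals were scaled by TMM (edgeR 4.0.16, after filterByExpr, 404 genes). The alternatives were total counts, DESeq2 1.42.0 size factors, a pseudocount of 1, the unstranded column, other count and fold thresholds, all reads as the denominator, each library alone, and 2 kb between neighbours. Intervals are 95% exact Poisson or binomial ones, computed with scipy 1.17.1. The ratio and its interval were tested on simulated counts that held counting error only, without TMM. That check therefore says nothing of variation between libraries. No test between libraries was made, since the genes were chosen from these counts and each side holds 1 library. The members and marker lists were chosen with earlier results of these data known. The genes named are the 8 members, the highest genes of each list and the 5 genes nearest to the members' median ratio. Mir1247, Mir1964 and list genes that were low or at 0 were named after their values were seen. Mature and hairpin sequences are from RefSeq (GRCm38.p6).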

Additional observations from a re-analysis of the deposited data

How the results depend on the processing

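All 8 members were over 2-fold higher in replicate 1 on total sense counts, with DESeq2 size factors, with a pseudocount of 1 and in the unstranded column. All 8 were also past 4-fold, and past 2-fold with no filter. At a pooled count of 100 or more, which leaves out Mir96, 7 of 7 were. Among all genes, those higher in replicate 1 were 100 of 438 on total sense counts, 76 with DESeq2 and 75 with a pseudocount of 1. They were 77 of 412 in the unstranded column, 17 of 438 past 4-fold, 191 of 2202 with no filter and 51 of 316 at 100 or more. As the members were chosen with this contrast known, their counts are description only. On total sense counts the members' median log2 ratio was -3.21. With the other scalings and pseudocounts it lay between -3.03 and -3.01. The split of all genes past 2-fold was 77 higher in replicate 1 and 38 in replicate 2 with TMM, and 100 and 24 on total sense counts. The members' summed level rests on replicate 1, at 225.8 CPM without replicate 1 and 2472 CPM without replicate 2, against a mean of 1349. With all reads as the denominator that mean was 470 CPM.

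On total sense counts the median log2 ratio was 0.13 for the other epithelial list, in place of 0.32. It turned to -0.078 for the cortical neuron list (0.11 with TMM) and to -0.087 for Mir184 (0.10), since that scaling lowers all ratios by 0.19. At 10 CPM, 2 of the 3 other epithelial genes were counted as expressed. The unstranded column differed from the sense column among the members only for Mir200a in replicate 2, with 38 in place of 36 counts. It could therefore hardly move the shares of Mir200b and of the miR-200 seeds, which stayed within their counting intervals. Within 2 kb the median difference of other neighbours was 0.81. No paired analysis was possible because all samples form 1 group. With 2 libraries no ratio can be recomputed without one of them. At 8 counts in replicate 2, the counting interval of the ratio of Mir96 ran from 2.33-fold to 12.03-fold, and it leaves out variation between libraries.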
